A study of Mus musculus with 24 samples.

Results

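The 9 genes described here, Aqp1, Cldn2, Slc4a5, Slc4a2, Car14, Car12, Clic6, Kcne2 and Kcnj13, carry water, ions and bicarbonate across the epithelium of the choroid plexus. They were taken by gene name from the annotation of a mouse mRNA array, which matched them with 12 of its 55681 non-control probes. The measurements came from a study of neonatal hippocampus after morphine given together with stress, with 15 one-colour Agilent arrays, 5 per group. All pups were male C57BL/6 mice by their labels and were killed on postnatal day (P) 9, and the bilateral hippocampi of 1 animal were pooled into 1 sample. From P5, MS2 pups received morphine at 2 mg/kg and MS5 pups at 5 mg/kg by subcutaneous injection. Both of these groups were also isolated from the dam during the day and breathed nitrogen for 1 min followed by oxygen for 5 min to mimic apnea. Con pups were untreated littermates that stayed with the dam and were handled little, without injections. A difference from Con therefore spans morphine and the stress protocol, which cannot be told apart, whereas MS5 and MS2 shared the stress and differed in dose.

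The choroid plexus hangs in the brain ventricles and secretes cerebrospinal fluid. Its epithelial cells take up ions from the blood side with exchangers on their basolateral membrane, hydrate carbon dioxide with carbonic anhydrases, and release sodium, chloride, bicarbonate and water at the ventricular surface. Potassium channels hold the membrane potential that drives this release, and tight junctions set what passes between the cells.

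Levels are log2 values of normalized spot intensity. The brightness of a probe depends on its sequence, so levels were compared between arrays and never between genes. A gene with more than 1 probe is represented by 1 lead probe, whose choice is given in the methods. All 9 lead probes were well above background on all 15 arrays, and 0 member spots were saturated. A difference counted as past the threshold, and is called a fall or a rise, when it exceeded 1.5-fold and limma gave it an unadjusted p below 0.05, the criterion that the study used. Benjamini-Hochberg adjusted p over all probes stand beside it, and 0 of 55681 probes had an adjusted p under 0.05 in any of the 3 contrasts. Without adjustment, limma gave a p under 0.05 at 2173 probes for MS5 versus Con, 2324 for MS2 versus Con and 2211 for MS5 versus MS2. An exact two-sided permutation test over all ways to divide 10 arrays into 5 and 5 could not go below 0.00794. Hippocampus is a mixture of cells, so that fewer cells of a type and less RNA per cell cannot be told apart.

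Some arrays stood apart from the rest of their group. MS5 replicate 9, labelled male, carried Xist, the RNA of the inactive X chromosome of female cells, at 11.34 and 9.45 (log2) at 2 probes, where the other 14 arrays lay between 5.89 and 6.08. MS2 replicate 4 had a summed level of 6 hippocampal neuron markers at 0.268 of the control mean and of 7 hypothalamic and thalamic markers at 9.94 times the control mean. MS2 replicate 5 had the lowest median signal, 58.2 against 121 to 154 on the other arrays. All 6 hippocampal neuron markers were well above background on all 15 arrays, and so were 13 of 14 markers of choroid plexus epithelium. Results for the 9 genes are given with and without the arrays they rest on.

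In the MS5 group 8 of the 9 genes fell relative to Con, by 1.73- to 3.29-fold, and 0 rose. Slc4a2 was the exception. Over all probes 0.183% fell and 0.0449% rose past the same threshold. The members were chosen with earlier results of these data known. Aqp1, Cldn2, Slc4a5, Car14 and Clic6 are genes that the study had reported as lower on these arrays. A high count was thus partly built into the choice and is no independent support. The study also reported that Aqp1 and Cldn2 varied with morphine dose by qPCR on the same samples. Of the 12 member probes, 10 fell. The median of the 9 differences was -1.27 (log2), against 0.00 over all probes. In the MS2 group 0 of the 9 passed the threshold in either direction, with a median of -0.22, where 0.00718% of all probes fell and 0.0162% rose. Between the morphine doses all 9 differences were below 0, with a median of -1.10, and 5 of the 9 fell from MS2 to MS5, where 0.111% of all probes fell. Without MS5 replicate 9 the counts were 3 against Con and 0 against MS2. These contrasts share arrays, MS5 in the first and last and Con in the first and second, so they are not independent of each other. For 0 of the 9 lead probes did the MS5 arrays lie wholly below the Con arrays, which 0.519% of all probes did.

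**Figure D1:**
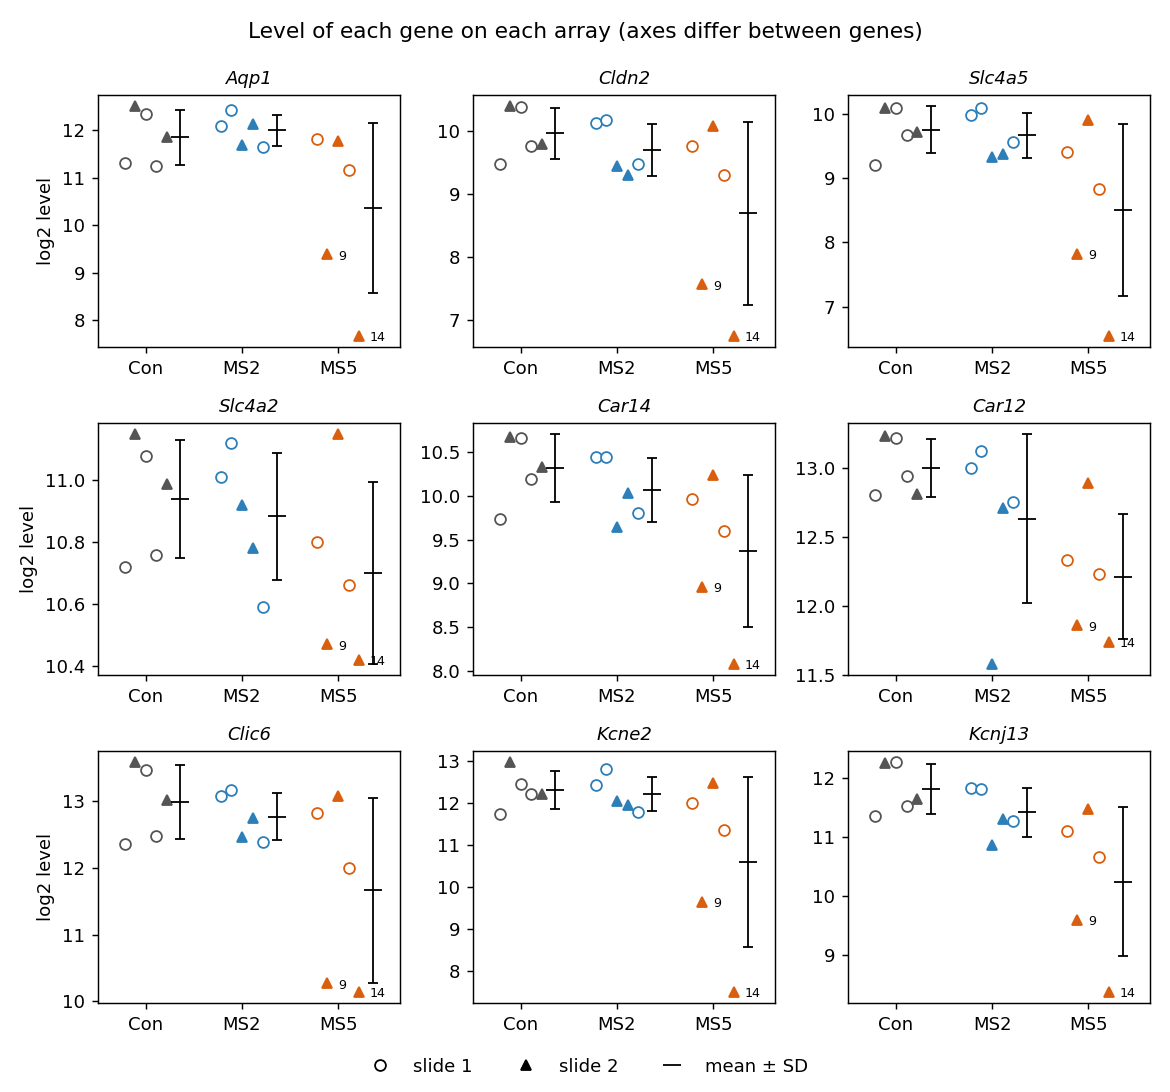
Log2 level of each of the 9 genes (lead probe) on each array by group, with circles for slide 1, triangles for slide 2 and the mean ± SD of 5 arrays beside each group. MS5 replicates 9 and 14, numbered in the plot, lie below all Con arrays in every panel, and MS5 replicate 12 lies among the Con arrays.

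Aqp1 encodes aquaporin-1, the water channel of the ventricular membrane. Its probe maps to chr6:55298480-55298539 on the plus strand (mm9, the build of the array annotation). Control Aqp1 levels were 11.31, 12.50, 12.33, 11.24 and 11.84 on replicates 15, 16, 17, 18 and 19, an order kept for Con below. MS2 levels of Aqp1 were 12.08, 12.41, 11.69, 12.12 and 11.64 on replicates 1, 3, 4, 5 and 7. On MS5 arrays Aqp1 was at 11.81, 9.39, 11.76, 11.16 and 7.68 on replicates 8, 9, 12, 13 and 14. Replicates 9, 13 and 14 of MS5 lay below every control, and replicates 8 and 12 lay among the controls. Aqp1 fell 2.8-fold from Con to MS5 (difference -1.48 log2, SE 0.63, unadjusted p = 0.0336, adjusted p = 1, exact permutation p = 0.0952). Without MS5 replicate 9 the difference was -1.24 with an unadjusted p of 0.0841, and without MS5 replicate 14 it was -0.81 with 0.0802, so the call ended in both cases. From MS2 to MS5 Aqp1 fell by 1.63 (SE 0.63, unadjusted p = 0.0215, exact permutation p = 0.0476), and without replicate 9, the 1 of 15 single arrays whose loss ended the call, this was -1.39 with an unadjusted p of 0.057. MS2 and Con differed in Aqp1 by 0.14, with a 95% interval from -1.21 to 1.5. The MS5 arrays spread far more than the controls in Aqp1, with an SD of 1.79 against 0.57.

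Cldn2 encodes claudin-2, a tight junction protein that forms pores for cations and water between epithelial cells. Its lead probe lies at chrX:136345244-136345303 on the plus strand (mm9). Control Cldn2 levels were 9.48, 10.40, 10.39, 9.76 and 9.79. MS2 levels of Cldn2 were 10.13, 10.18, 9.44, 9.31 and 9.48. On MS5 arrays Cldn2 was at 9.76, 7.57, 10.08, 9.31 and 6.75. As for Aqp1, MS5 replicates 9 and 14 were far below all other arrays and replicates 8 and 12 were within the control range. Cldn2 fell 2.41-fold from Con to MS5 (difference -1.27 log2, SE 0.52, unadjusted p = 0.0282, adjusted p = 1, exact permutation p = 0.0952). Without MS5 replicate 9 the Cldn2 difference was -0.99 (unadjusted p = 0.0813), and without replicate 14 it was -0.78 (0.0798). The second Cldn2 probe, which was well above background on 3 of the 5 MS5 arrays, differed by -0.43 (unadjusted p = 0.0486), less than the 1.5-fold limit. Cldn2 did not pass the threshold between MS5 and MS2 (-1.02, 95% interval -2.13 to 0.10) or between MS2 and Con (-0.25, 95% interval -1.37 to 0.86).

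Among the members that are bicarbonate carriers of the Slc4 family, Slc4a5 passed the threshold between MS5 and Con and Slc4a2 did not. The difference between these genes was not tested. Slc4a5 encodes an electrogenic sodium bicarbonate cotransporter of the ventricular membrane, and its lead probe lies at chr6:83253664-83253723 on the plus strand (mm9). Control Slc4a5 levels were 9.20, 10.08, 10.09, 9.66 and 9.72. MS2 levels of Slc4a5 were 9.97, 10.09, 9.33, 9.37 and 9.55. On MS5 arrays Slc4a5 was at 9.41, 7.82, 9.90, 8.83 and 6.55. MS5 replicates 9, 13 and 14 lay below all controls, and replicates 8 and 12 did not. Slc4a5 fell 2.37-fold from Con to MS5 (difference -1.25 log2, SE 0.48, unadjusted p = 0.0196, adjusted p = 1, exact permutation p = 0.0714). The Slc4a5 difference was -1.08 without MS5 replicate 9, at which the call was lost (unadjusted p = 0.0514), and -0.76 without replicate 14, at which it was not (0.0425). The second Slc4a5 probe fell by 0.73 (unadjusted p = 0.0283). Against MS2, Slc4a5 fell by 1.16 (SE 0.48, unadjusted p = 0.0281, exact permutation p = 0.0873), and in 11 of 15 fits with 1 array dropped, but not without MS2 replicate 1, MS2 replicate 3, MS5 replicate 9 (-0.99, unadjusted p = 0.0705) or MS5 replicate 14 (-0.67, unadjusted p = 0.0683). MS2 differed from Con in Slc4a5 by -0.09 (95% interval -1.10 to 0.93).

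Slc4a2 encodes a chloride/bicarbonate exchanger of the basolateral membrane that many other tissues also make. Its probe lies at chr5:23946704-23946763 on the plus strand (mm9). Control Slc4a2 levels were 10.72, 11.15, 11.08, 10.76 and 10.99. MS2 levels of Slc4a2 were 11.01, 11.12, 10.92, 10.78 and 10.59. On MS5 arrays Slc4a2 was at 10.80, 10.47, 11.15, 10.66 and 10.42. Replicates 9, 13 and 14 were again the lowest of MS5, by a small margin, and replicate 12 was as high as the highest control. Slc4a2 differed by -0.24 between MS5 and Con (SE 0.14, unadjusted p = 0.103, exact permutation p = 0.183), with a 95% interval from -0.53 to 0.05. Its differences were -0.18 between MS5 and MS2 (95% interval -0.48 to 0.11) and -0.06 between MS2 and Con (95% interval -0.35 to 0.24).

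Car14 and Car12 encode carbonic anhydrases that are anchored in the cell membrane with the active site outside. The lead probe of Car14 lies at chr3:95701859-95701918 on the minus strand (mm9). Control Car14 levels were 9.74, 10.68, 10.66, 10.19 and 10.33. MS2 levels of Car14 were 10.45, 10.44, 9.64, 10.03 and 9.80. On MS5 arrays Car14 was at 9.97, 8.96, 10.24, 9.6 and 8.08. The pattern over MS5 arrays was that of Slc4a5, with replicates 9, 13 and 14 below all controls. Car14 fell 1.93-fold from Con to MS5 (difference -0.95 log2, SE 0.34, unadjusted p = 0.0137, adjusted p = 1, exact permutation p = 0.0476). The fall of Car14 was still past the threshold without MS5 replicate 9 (-0.84, unadjusted p = 0.0357) and without replicate 14 (-0.63, unadjusted p = 0.0329). Neither the difference of -0.70 between MS5 and MS2 (95% interval -1.42 to 0.02) nor that of -0.25 between MS2 and Con (95% interval -0.97 to 0.48) passed for Car14.

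Car12 has its probe at chr9:66614542-66614601 on the plus strand (mm9). Control Car12 levels were 12.80, 13.23, 13.22, 12.94 and 12.81. MS2 levels of Car12 were 13, 13.12, 11.58, 12.71 and 12.75. On MS5 arrays Car12 was at 12.33, 11.86, 12.89, 12.23 and 11.74. All MS5 arrays but replicate 12 lay below every control, and the lowest array of all was MS2 replicate 4, whose hippocampal neuron markers were also low. Car12 fell 1.73-fold from Con to MS5 (difference -0.79 log2, SE 0.26, unadjusted p = 0.00924, adjusted p = 1, exact permutation p = 0.0238). This call held without MS5 replicate 9 (-0.70, unadjusted p = 0.0259) and without replicate 14 (-0.67, unadjusted p = 0.028). Car12 was the gene with the most even change over the slides, -0.71 on slide 1 and -0.86 on slide 2. Between MS5 and MS2 Car12 differed by -0.42 (95% interval -0.98 to 0.14) with all arrays and fell by 0.68 (unadjusted p = 0.00324) without MS2 replicate 4. MS2 and Con differed in Car12 by -0.37 (95% interval -0.93 to 0.19), or by -0.11 without MS2 replicate 4.

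Clic6 encodes a member of the chloride intracellular channel family. Its probe lies at chr16:92541363-92541422 on the plus strand (mm9). Control Clic6 levels were 12.36, 13.58, 13.47, 12.48 and 13.01. MS2 levels of Clic6 were 13.07, 13.17, 12.46, 12.74 and 12.39. On MS5 arrays Clic6 was at 12.82, 10.27, 13.08, 12.00 and 10.14. MS5 replicates 9 and 14 stood apart at nearly the same level, replicate 13 lay just below the controls, and replicates 8 and 12 were within their range. Clic6 fell 2.49-fold from Con to MS5 (difference -1.32 log2, SE 0.51, unadjusted p = 0.0213, adjusted p = 1, exact permutation p = 0.0952). The Clic6 call was lost without MS5 replicate 9 (-0.97, unadjusted p = 0.0657) and without replicate 14 (-0.94, unadjusted p = 0.0657). From MS2 to MS5 Clic6 fell (difference -1.10, SE 0.51, unadjusted p = 0.0481, exact permutation p = 0.143), a call just inside the threshold that stood in only 3 of 15 fits with 1 array dropped. It was lost without any single Con array, which moves only the shared spread, and the difference was -0.75 without MS5 replicate 9 (unadjusted p = 0.143) and -0.72 without MS5 replicate 14 (unadjusted p = 0.146). MS2 and Con differed in Clic6 by -0.22 (95% interval -1.31 to 0.88).

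Kcne2 and Kcnj13 serve the potassium conductance of the ventricular membrane. Kcne2 encodes a small subunit that joins pore-forming potassium channel subunits such as those of Kcnq1 and Kcna3, and its probe lies at chr16:92298236-92298295 on the plus strand (mm9). Control Kcne2 levels were 11.73, 12.96, 12.44, 12.20 and 12.21. MS2 levels of Kcne2 were 12.43, 12.79, 12.05, 11.95 and 11.79. On MS5 arrays Kcne2 was at 11.99, 9.65, 12.46, 11.35 and 7.51. Replicate 14 of MS5 deviated by -4.80 (log2) from the control mean, the largest deviation of any of the 9 genes on any array. Kcne2 fell 3.29-fold from Con to MS5 (difference -1.72 log2, SE 0.70, unadjusted p = 0.0275, adjusted p = 1, exact permutation p = 0.0794). Its call was lost without MS5 replicate 9 (-1.48, unadjusted p = 0.0677) and without replicate 14 (-0.95, unadjusted p = 0.0532). Compared with MS2, Kcne2 fell by 1.61 (SE 0.70, unadjusted p = 0.0369, exact permutation p = 0.111), and in 11 of 15 fits with 1 array dropped, but not without MS2 replicate 1, MS2 replicate 3, MS5 replicate 9 (-1.38, unadjusted p = 0.0874) or MS5 replicate 14 (-0.84, unadjusted p = 0.0819). MS2 and Con differed in Kcne2 by -0.11 (95% interval -1.61 to 1.39).

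Kcnj13 encodes Kir7.1, an inwardly rectifying potassium channel. Its lead probe lies at chr1:89282991-89283050 on the minus strand (mm9). Control Kcnj13 levels were 11.35, 12.25, 12.27, 11.53 and 11.65. MS2 levels of Kcnj13 were 11.84, 11.82, 10.86, 11.31 and 11.28. On MS5 arrays Kcnj13 was at 11.11, 9.6, 11.48, 10.66 and 8.37. All MS5 arrays but replicate 12 lay below every control, as for Car12. Kcnj13 fell 2.96-fold from Con to MS5 (difference -1.56 log2, SE 0.46, unadjusted p = 0.00431, adjusted p = 1, exact permutation p = 0.0159). The second probe of Kcnj13 fell by 1.32 (SE 0.39, unadjusted p = 0.0042). The Kcnj13 fall was past the threshold without MS5 replicate 9 (-1.40, unadjusted p = 0.0131) and without replicate 14 (-1.10, unadjusted p = 0.00604). Against MS2, Kcnj13 fell by 1.18 (SE 0.46, unadjusted p = 0.023, exact permutation p = 0.0635), and in 11 of 15 fits with 1 array dropped, but not without MS2 replicate 1, MS2 replicate 3, MS5 replicate 9 (-1.02, unadjusted p = 0.0585) or MS5 replicate 14 (-0.71, unadjusted p = 0.0548). MS2 and Con differed in Kcnj13 by -0.39 (95% interval -1.38 to 0.60).

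**Figure D2:**
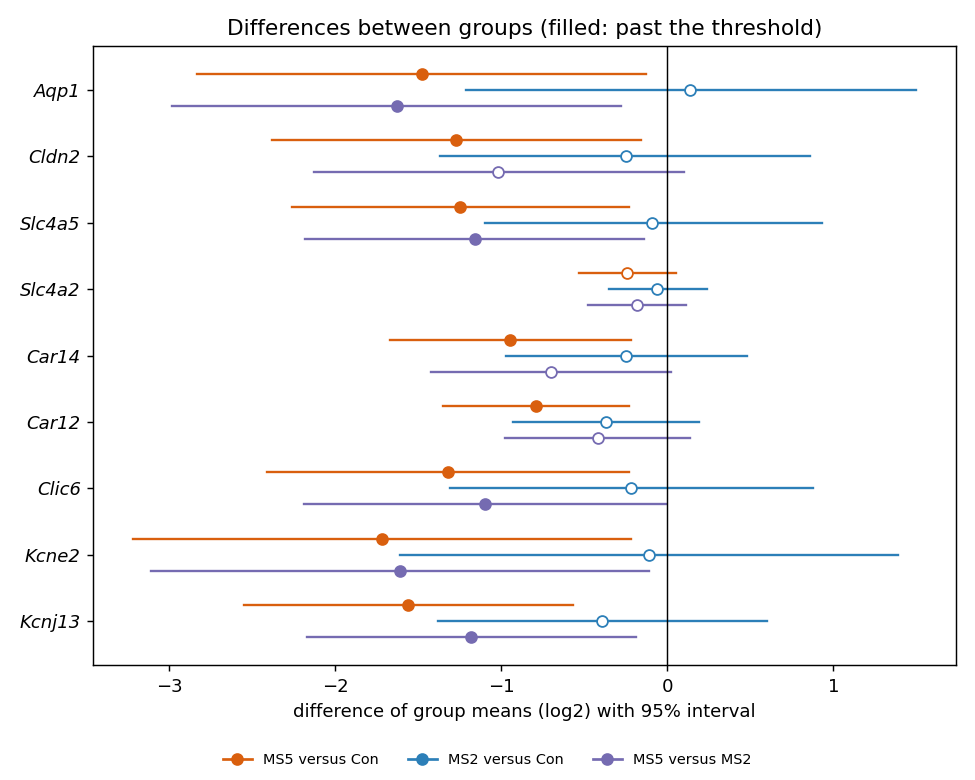
Difference of group means (log2) for the lead probe of each gene with its 95% interval from the limma fit, in the 3 contrasts, with filled points past the threshold. For MS5 versus Con 8 of 9 points are filled, for MS2 versus Con 0, and for MS5 versus MS2 5.

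The 9 genes varied together from array to array. Averaged over the 9, the deviation from the control mean was -2.85 (log2) on MS5 replicate 14, -1.92 on replicate 9, -0.79 on replicate 13 and -0.32 on replicate 8. On MS5 replicate 12 it was 0.02. Individual controls ranged from -0.47 to 0.43 by the same measure and MS2 arrays from -0.55 to 0.25. All 9 genes were below every control on MS5 replicates 9, 13 and 14, 2 of the 9 on replicate 8 (Car12 and Kcnj13), and 0 on replicate 12. The genes differed in how far they moved. Slc4a2 was the least low of the 9 on replicates 9 and 14, at -0.47 and -0.52, while Clic6 was the lowest on replicate 9 (-2.71) and Kcne2 on replicate 14.

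Across the 15 arrays the 36 pairs of genes had Pearson correlations from 0.66 to 0.99 with a median of 0.95, values that rest in part on the same hybridizations. Over the 13 arrays without MS5 replicates 9 and 14 the median was 0.85, and over the 10 Con and MS2 arrays alone it was 0.84, with a range from 0.31 to 0.95. The genes thus varied together also among arrays of the groups in which none fell. Over the 15 arrays Car12 and Slc4a2 followed the others least. Their correlations with the mean of the other 8 members were 0.78 and 0.84, against 0.97 to 0.99 for the rest. Over the Con and MS2 arrays, the mean pair correlation with other members was lowest for Car12 (0.60), then Aqp1 (0.71) and Slc4a2 (0.75). Spread was above that of the median probe for these genes in every group. The SD over control arrays ran from 0.19 for Slc4a2 to 0.57 for Aqp1, where the median probe had 0.09. That median includes probes not above background, and probes of like level were not compared.

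**Figure D3:**
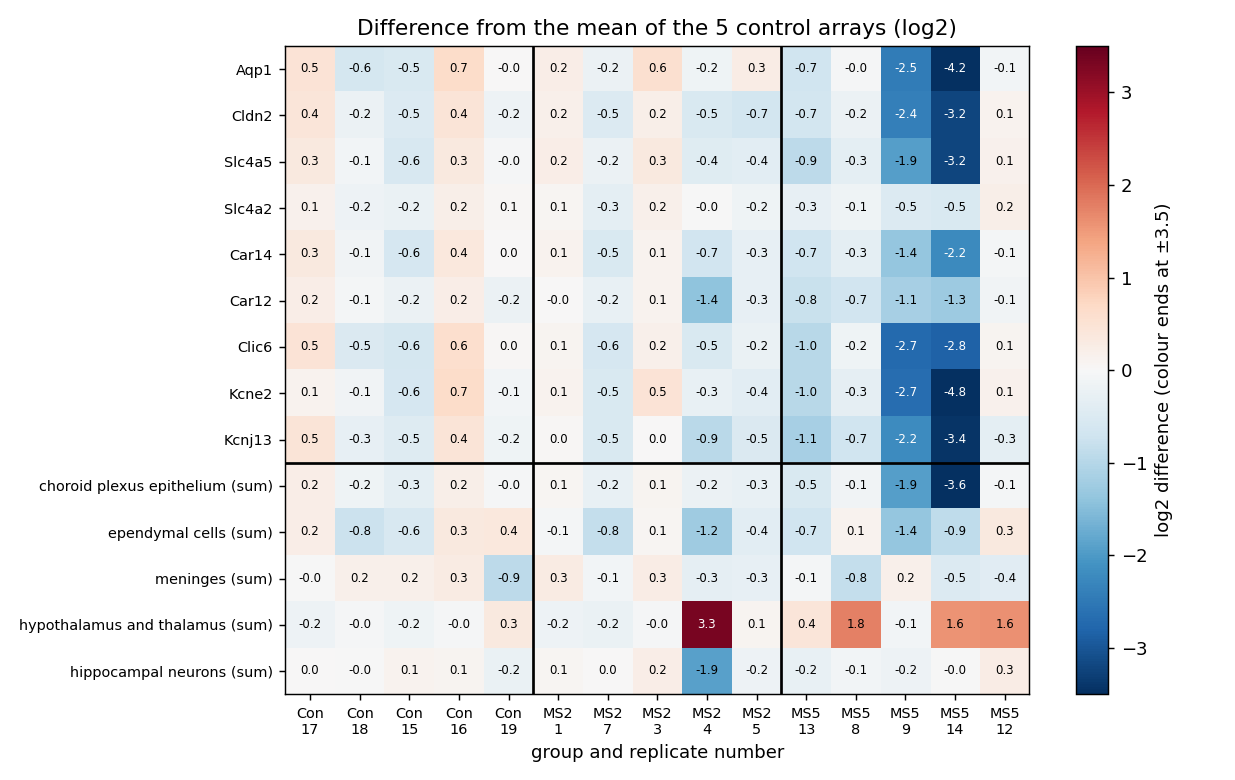
Difference from the control mean (log2) of each gene on each array, and below the line the log2 of the summed level of 5 marker lists relative to the control mean, with blue for lower and red for higher. MS5 replicates 9 and 14 are the lowest columns for 8 of the 9 genes and for the choroid plexus sum, and the hippocampal neuron sum is low on MS2 replicate 4.

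The fall in MS5 rested on a few arrays. Without MS5 replicate 9, the array with Xist, 3 of the 9 genes passed the threshold against Con (Car14, Car12 and Kcnj13) and 0 against MS2. Without MS5 replicate 14, 4 passed against Con (these 3 and Slc4a5) and 1 against MS2 (Aqp1). With both left out, an alternative chosen after seeing the data, all 9 differences from Con were still below 0 but only Kcnj13 passed (-0.73, unadjusted p = 0.0208), and 0 of the 9 passed against MS2. Among the controls, leaving out replicate 16 left 4 genes past the threshold and leaving out replicate 17 left 6. Leaving out MS2 replicate 1 or MS2 replicate 3 left 1 gene past it between MS5 and MS2, while leaving out MS5 replicate 12 brought the count to 8.

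**Figure D4:**
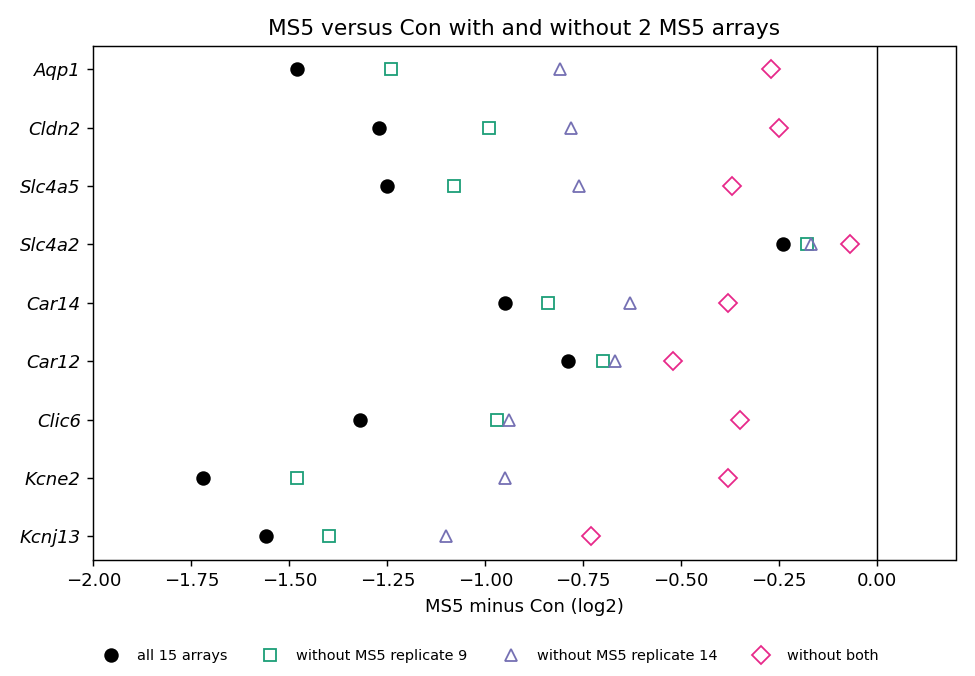
MS5 minus Con difference (log2) for each gene with all 15 arrays, without MS5 replicate 9, without MS5 replicate 14 and without both. The points without both arrays lie between -0.73 for Kcnj13 and -0.07 for Slc4a2.

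By the barcodes in the scanner files the arrays lay on 2 slides, with 3 Con, 3 MS2 and 2 MS5 arrays on slide 1 and 2, 2 and 3 on slide 2. MS5 replicates 9 and 14 were both on slide 2. Within slide 1 all 9 genes were lower in MS5 than in Con, from -0.12 for Slc4a2 to -0.83 for Kcnj13, with Aqp1 at -0.14. Within slide 2 the 9 differences ran from -0.39 for Slc4a2 to -2.71 for Kcne2, with Aqp1 at -2.56. MS2 minus Con within slide 1 ran from -0.07 for Kcnj13 to 0.42 for Aqp1. Within slide 2 all 9 genes were lower in MS2 than in Con, from -0.22 for Slc4a2 to -0.88 for Car12. No difference within a slide was tested. With the slide as a block 7 of the 9 fell relative to Con, Aqp1 being the one whose call ended (-1.39, unadjusted p = 0.05), and 3 of the 9 relative to MS2.

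Other markers of choroid plexus epithelium moved with the 9 genes. Of 14 listed markers, 9 fell in MS5 relative to Con, where 0.183% of all probes fell. All 14 had negative differences, with a median of -1.11. The list was chosen with earlier results of these data known. It holds Folr1, Kl, Calml4, Msx1, F5 and Otx2, which the study had reported as lower in MS5. The count is therefore no independent support. The summed level of the 14 markers was 0.786 to 1.18 of the control mean in Con, 0.833 to 1.06 in MS2 and 0.0821 to 0.954 in MS5. The lowest values were again those of MS5 replicate 14 and replicate 9 (0.264), while the summed level of the 9 genes ran from 0.203 to 0.966 in MS5. Ttr, the transthyretin carrier protein that dominates this epithelium, differed by -1.54 (unadjusted p = 0.0509). The sums add linear levels, so Ttr, with the highest control mean of the list (17.95 log2), weighs most in them. Otx2, a transcription factor of this epithelium, fell by 1.26 (unadjusted p = 0.0309, exact permutation p = 0.0952). Folr1, the folate receptor, fell by 1.29 (unadjusted p = 0.00605, exact permutation p = 0.0397). The exact permutation p was also above 0.05 for Enpp2 (0.0794), Sostdc1 (0.0556) and 1500015O10Rik (0.0556), which fell too. It was below 0.05 for Kl, Calml4, Msx1 and F5. Prlr and Rdh5, on the same list, differed by only -0.05 (unadjusted p = 0.536) and -0.28 (0.0767).

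Markers of neighbouring tissue were measured beside them. Of 7 ependymal markers 0 passed the threshold and all 7 had negative differences (median -0.38), with a summed level of 0.39 to 1.27 in MS5 and 0.593 to 1.28 in Con. Of 6 meningeal markers 0 passed and all 6 had negative differences (median -0.25), with sums of 0.562 to 1.14 in MS5 and 0.526 to 1.21 in Con. Of 7 hypothalamic and thalamic markers 3 rose from Con to MS5 (Avp, Oxt and Trh), where 0.0449% of all probes rose. The study had reported Avp and Trh as higher in MS5, and this list was chosen with earlier results known. The count is therefore no independent support. Hcrt, Pmch, Tcf7l2 and Lhx9, on the same list, differed by 0.03, 0.35, 0.10 and -0.00. The exact permutation test gave p = 0.119 for Avp, 0.143 for Oxt and 0.0476 for Trh. Sums of the 7 markers ran from 0.936 to 3.39 in MS5. The highest sum of all arrays was that of MS2 replicate 4. Within MS5, the arrays with high sums of this list, replicates 8, 12 and 14, included those with the highest and the lowest mean deviation of the 9 genes. Of 4 blood markers 0 passed and all 4 had negative differences (median -0.40), with sums of 0.487 to 0.992 in MS5 and 0.499 to 1.43 in Con. Of 6 endothelial and 6 hippocampal neuron markers 0 passed, with medians of 0.03 and -0.13 and sums in MS5 of 0.937 to 1.04 and 0.842 to 1.2. How much of the fall of the 9 genes went with the amount of choroid plexus in a sample was not tested.

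Of a list of 45 other genes of fluid secretion and of its barrier, 2 fell in MS5 relative to Con and 0 rose, where 0.183% of all probes fell, and the median difference was -0.04. Without the fold limit, 12 of the 45 were lower at an unadjusted p under 0.05 in limma and 0 were higher, where 2.43% of all probes were lower at that p. The difference between this list and the 9 genes was not tested. Trpv4, a cation channel that senses osmotic swelling and is abundant in choroid plexus, fell by 1.11 (SE 0.37, unadjusted p = 0.00974), and Slc13a4, a sodium sulfate cotransporter, fell by 0.65 (SE 0.27, unadjusted p = 0.0292). Trpv4 was also lower in MS5 than in MS2, by 0.91 (unadjusted p = 0.0283), and was the 1 gene of the list to pass there. The largest positive differences were 0.23 for Car13, a cytosolic carbonic anhydrase, and 0.18 for Kcna3. Cldn11 was level with Kcna3 at this rounding, and none of these genes passed. Among barrier genes, the tight junction proteins Cldn1, Cldn3 and Ocln differed by -0.48 (unadjusted p = 0.0262), -0.39 (0.0338) and -0.36 (0.0132), each under 1.5-fold. Slc12a2, the sodium potassium chloride cotransporter of the ventricular membrane, differed by -0.33 (SE 0.10, unadjusted p = 0.00422), and Kcnq1 by -0.22 (SE 0.07, unadjusted p = 0.00921), both under 1.5-fold. Slc12a2, Kcnq1, Cldn1, Cldn3 and Ocln are named for their place in secretion and its barrier, after their values were seen. Of the 45 genes, 42 were well above background on all 15 arrays, and Kcne1 on 0.

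Among 25521 genes well above background on all 15 arrays, the 10 whose levels were most like the mean of the 9 members had correlations of 0.99 to 1.00 over 15 arrays and of 0.94 to 0.99 over the 13 without MS5 replicates 9 and 14. They were 1500015O10Rik, Wfdc2, Defb11, 1110059M19Rik, Tex22, Trpv4, Calml4, Krt18, Krt8 and a transcript that the array annotation names by its position alone. Their differences between MS5 and Con lay between -1.86 and -1.11. Calml4, 1500015O10Rik and Trpv4 were already on the lists above.

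Kcne2 and Clic6 are neighbours on chromosome 16, with probes 243068 bases apart (mm9), and none of the 5 measured genes between them passed the threshold. In chromosomal order, Smim11 differed by -0.03 between MS5 and Con (SE 0.04), 1700048M11Rik by 0.09 (SE 0.06) and Rcan1 by 0.04 (SE 0.05). Fam243 had a difference of -0.39 (SE 0.17, unadjusted p = 0.0427), under 1.5-fold, and followed the 9 genes over the 15 arrays with a correlation of 0.90. Smim11, 1700048M11Rik and Rcan1 had correlations of 0.34, -0.60 and -0.30. Kcne1, in the same interval, was well above background on 0 arrays.

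**Figure D5:**
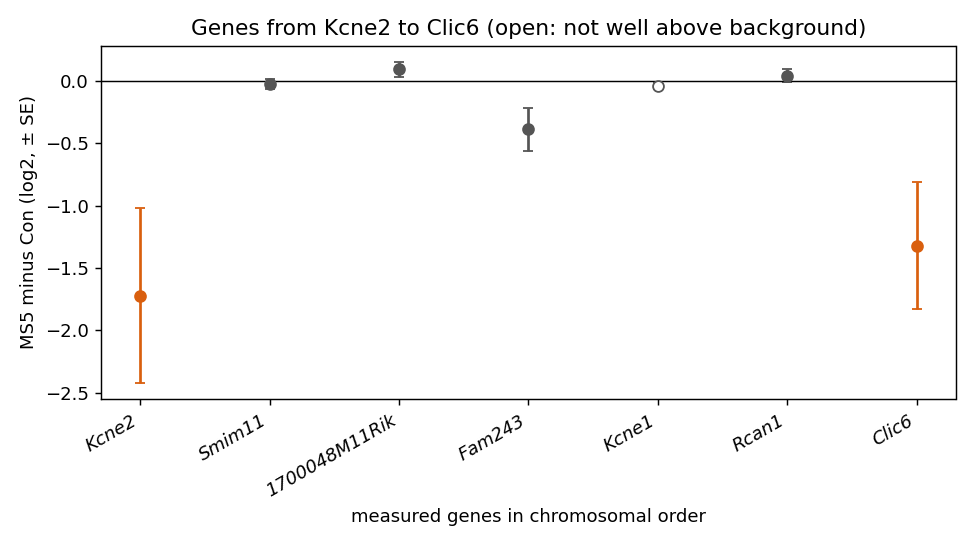
MS5 minus Con difference (log2) ± SE of the measured genes from Kcne2 to Clic6 in chromosomal order, with the 2 members in orange and Kcne1, which was not well above background, as an open point. Kcne2 at -1.72 and Clic6 at -1.32 flank genes between -0.39 and 0.09.

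The promoter sequence sets Slc4a2, the gene that did not pass, beside the genes that fell. In the 250 bases before the annotated start (RefSeq, GRCm38.p6), windows were found for 8 of the 9 genes, Clic6 being the one without, with 2 windows each for Slc4a2 and Kcne2. The median of all 32851 windows held 6 CpG dinucleotides. The first Slc4a2 window held 28, a number reached by 7.61% of all windows, and its second 16, reached by 25.4%. The 8 windows of the 7 genes that fell held 1 to 10. This comparison of 1 gene with the others was made after the values were seen, and its bearing on the falls was not tested. Kcnj13, whose fall was the one past the threshold without MS5 replicates 9 and 14, held 3, which 71% of all windows reach. Their windows, at chr5:24424982-24425231 on the plus strand for Slc4a2 and chr1:87394730-87394979 on the minus strand for Kcnj13, are shown 5′ to 3′ with each CpG in capitals.
Slc4a2: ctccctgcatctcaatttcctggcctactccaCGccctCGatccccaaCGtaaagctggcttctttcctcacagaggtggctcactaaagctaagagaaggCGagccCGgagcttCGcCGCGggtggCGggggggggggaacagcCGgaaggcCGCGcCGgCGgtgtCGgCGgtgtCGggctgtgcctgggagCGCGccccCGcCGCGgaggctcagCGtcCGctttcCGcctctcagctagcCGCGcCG
Kcnj13: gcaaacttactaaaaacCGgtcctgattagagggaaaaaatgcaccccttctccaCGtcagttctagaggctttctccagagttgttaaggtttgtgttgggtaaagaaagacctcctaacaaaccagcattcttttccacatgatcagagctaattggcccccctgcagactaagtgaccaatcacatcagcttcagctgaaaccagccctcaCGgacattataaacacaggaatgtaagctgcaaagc
The core site of OTX2, TAATCC on either strand (GGATTA on the other), was searched because Otx2 fell with the members, a choice made after values were seen. It was present in 1 of the 10 windows, that of Car14, and in 6.25% of all windows of this length. A match of these letters is a description and shows no binding, and their absence from a window says nothing about the factor. The Car14 window, chr3:95904686-95904935 on the minus strand, is shown with the site in capitals.
Car14: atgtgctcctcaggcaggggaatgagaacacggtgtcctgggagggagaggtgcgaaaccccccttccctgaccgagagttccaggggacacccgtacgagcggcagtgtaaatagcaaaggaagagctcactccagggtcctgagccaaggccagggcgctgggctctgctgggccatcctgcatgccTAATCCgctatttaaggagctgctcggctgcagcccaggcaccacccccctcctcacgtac

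MiR-204, which is abundant in choroid plexus epithelium, was measured on miR arrays, 8 of which carry the same group and animal number as an mRNA array. The labels give no more than the number, so whether both arrays came from the same animal is not settled. RefSeq gives the mature miR-204-5p as follows, with the seed, bases 2 to 8, in capitals.
miR-204-5p: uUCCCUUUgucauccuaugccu
In Con its log2 level was 6.99, 7.06 and 7.53 in replicates 16, 17 and 18, and in MS2 it was 8.30 and 6.84 in replicates 3 and 4. In MS5 it was 5.23 in replicate 12, 5.37 in replicate 14 and 7.31 in replicate 9. On the mRNA arrays of those 3 numbers the mean deviation of the 9 genes from controls was 0.02, -2.85 and -1.92. Replicate 14 was low by both readouts, replicate 12 in miR-204 alone and replicate 9 in the 9 genes alone. What lies behind this difference was not tested.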

How the data were processed

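Per the labels and the study's methods, hippocampal RNA of 15 animals was hybridized to Agilent 8x60k arrays, 5 per group, and that of 9 animals to Affymetrix miR arrays. The authors deposited scanner files with the intensity of each spot, extracted with Feature Extraction 10.7.1.1. They also deposited a table of log2 values made with normexp background adjustment and quantile normalization, whose values were used here. Rebuilding that table from the scanner files with an offset of 50 gave every value to within 5e-09. The deposited values of the miR arrays are log2 too, quantile normalized and summarized by median polish. The column medians of the mRNA table lay between 7.312 and 7.317. Scale, centring and direction of the table are thereby known.

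The rows of each probe were averaged, control spots (3671 of 62976) were left out, and 55681 probes were compared with limma 3.58.1 (lmFit and eBayes) in R 4.3.3 in 1 fit of 3 groups without covariates. The MS5 differences that the study printed for Aqp1, Cldn2, Slc4a5 and Car14 (-1.79, -1.52, -1.47 and -1.10) are larger than those of this fit. They equal those of the fit with array weights, which is an alternative here. Intervals are at 95%. Exact permutation tests were two-sided. The steps were tested on simulated data. The lead probe of a gene was that whose name begins with A_51 or A_52, among several the one with the highest mean, and otherwise the probe with the highest mean. Positions are those of the array annotation (mm9) and the exon hit by each probe was not looked up.

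Named genes were all 9 members with every probe, the genes of the secretion and barrier list past the threshold in any contrast, its 2 largest and 2 smallest differences between MS5 and Con, and the 10 genes most correlated with the mean of the members. The members and lists were chosen with earlier results of these data known. Choroid plexus, ependymal, meningeal, hypothalamic and thalamic, endothelial, blood and hippocampal neuron markers came from fixed lists. Gene order between Kcne2 and Clic6 came from RefSeq.

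The alternatives were the rebuilt values with spots averaged, no normexp offset, the processed signals divided by each array's 75th percentile, a filter on dim probes, array weights, the slide as a block, only the 2 groups compared, other choices of probe, and leaving out each array. Leaving out MS5 replicates 9 and 14 together was chosen after seeing the data. The number of arrays limits the precision, litters are not given, and p-values measure the spread between these animals.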

Additional observations from a re-analysis of the deposited data

Results flagged for a closer look

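Car12 on MS2 replicate 4 was at 11.58 (log2), with the nearest MS2 array at 12.71. The gap was 0.73 of the range of the group, more than the critical value of 0.71 for 5 arrays. Of 27 groups of 5 arrays examined (9 genes in 3 groups) it was 1, and chance picks out about 1 in 20. On the same array the summed level of hippocampal neuron markers was 0.268 of the control mean and that of hypothalamic and thalamic markers was 9.94. Their part in the Car12 value was not tested.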

How the results depend on the processing

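The count of genes past the threshold between MS5 and Con was 8 of 9 with all arrays. It was 8 under the rebuilt values, the offset of 0, the processed signal, the dim-probe filter, array weights and both other choices of probe, 7 with the slide as a block, and 5 with only the 2 groups compared. Between MS5 and MS2 the count was 5, and 8 with array weights, 3 with the slide as a block and 2 with only the 2 groups compared. Between MS2 and Con it was 0 under every alternative. Leaving out each array in turn gave 3 to 8 genes for MS5 versus Con, 0 to 8 for MS5 versus MS2 and 1 to 2 genes of the secretion and barrier list. Without MS5 replicates 9 and 14 together the counts were 1 and 0. Every difference between MS5 and Con stayed below 0 in every alternative. Small differences between MS2 and Con changed sign: Slc4a5 to 0.06 and Kcne2 to 0.01 with array weights, Aqp1 between -0.01 and 0.31, Kcne2 between -0.25 and 0.06 and Slc4a2 between -0.11 and 0.02 with an array left out. Between MS5 and MS2, Cldn2 went to 0.01 without MS5 replicates 9 and 14. The causes were not tested. Over all probes the count for MS5 versus Con was 127, and 401 with an offset of 0, 623 with the processed signal, 204 with array weights, 61 to 213 with an array left out and 42 without MS5 replicates 9 and 14. For MS2 versus Con it was 13, and 230 with an offset of 0, 522 with the processed signal and 7 to 38 with an array left out. For MS5 versus MS2 it was 72, and 370, 592 and 15 to 106 in the same order, with 159 under array weights, 38 with only the 2 groups compared and 22 without MS5 replicates 9 and 14. The shares of all probes given beside the members' counts therefore hold for the settings used there. No paired analysis was possible because the groups share no animal numbers. The number of arrays and the background of 8859 probes that were well above it on no array limit what could be seen, and the 9 lead probes lay above it throughout.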
